A study of Mus musculus with 6 samples.

Results

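Transcripts of 10 genes that encode ligands and receptors of the epidermal growth factor (EGF) and platelet-derived growth factor (PDGF) systems were followed in 3T3 cells given baicalin. They are the EGF-type ligand genes Ereg, Hbegf, Areg, Tgfa and Nrg1, the receptor gene Egfr, the PDGF ligand genes Pdgfa and Pdgfb, and the PDGF receptor genes Pdgfra and Pdgfrb. The genes were chosen by name, with earlier results of these data known, and all 10 were found among the 54532 genes of the deposited table. RNA was sequenced from 6 samples of wild-type 3T3 cells, a mouse fibroblast line labelled here as adipocytes. Of these, 3 were given 200 µM baicalin, a plant flavone glucuronide, and 3 were given DMSO, a solvent. No label states how long baicalin was applied, which 3T3 subline was used or how fat cell formation was started. The labels do not say that replicates were separate cultures, so the p-values cover only the variation among these 6 libraries, part or all of which may be technical.

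EGF-type ligands are made as precursors anchored in the plasma membrane. Metalloproteases of the ADAM family cut them free, and they then bind receptors of the ErbB family, of which the EGF receptor is the best known. Epiregulin, amphiregulin, transforming growth factor alpha and heparin-binding EGF all bind the EGF receptor, whereas neuregulin 1 binds ErbB3 and ErbB4. PDGF chains form disulphide-linked dimers that bind receptor tyrosine kinases made of alpha and beta chains. In fat tissue, PDGF receptor alpha is a widely used marker of the stromal cells from which fat cells arise, and PDGF receptor beta is prominent on mural cells of blood vessels.

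Total counts ran from 17598666 to 18326874 in baicalin libraries and from 16730594 to 17711950 in DMSO libraries. A gene without a read in the shallowest library was thus at most at 0.179 CPM (reads of a gene scaled to library size), a limit that covers counting error only. Of the 10 markers of mature fat cells examined, 6 could be tested, of which 5 were lower in baicalin and none higher, and Lep and Slc2a4 had under 10 reads in the 6 libraries together. By the same edgeR test 33.6% of all tested genes were higher and 34.1% lower, and all marker counts are to be read against these shares. The summed level of these markers was 314 to 327 CPM in baicalin and 447 to 523 CPM in DMSO, mostly from Fabp4, the gene of a fatty acid carrier (298 ± 6.08 CPM in baicalin and 430 ± 37.9 CPM in DMSO). Among the less abundant markers called lower, Adipoq, Cidec and Plin1 fell further, by 11.7-fold, 9.95-fold and 3.19-fold. Pparg fell less, by 1.27-fold, against 1.44-fold for Fabp4. Adipoq rests on only 7 reads in baicalin and 90 in DMSO, and Cidec on 27 in baicalin and 286 in DMSO. The size of the fall of Adipoq is thus uncertain (log2 fold change -3.54, SE 0.51 in edgeR). Cebpa was not called but stood higher, at 1.57 CPM in baicalin and 0.976 CPM in DMSO (adjusted p = 0.0579 in edgeR). Among untested fat cell markers, Retn had 28 reads in baicalin and 4 in DMSO, and Cfd 0 and 15. For 8 markers of fibroblasts and preadipocytes the sums were 8828 to 9057 CPM and 12438 to 13117 CPM in baicalin and DMSO libraries, with 2 of 7 tested markers higher and 5 lower. The sums came mostly from the collagen gene Col1a2, with means of 5421 CPM in baicalin and 7964 CPM in DMSO. Thy1 and Ly6a rose, by 2.13-fold and 3.75-fold, while Dlk1, Col1a1, Col1a2, Dcn and Lum fell. The 7 mural cell markers summed to 21.4 to 24.0 CPM in baicalin and 121 to 128 CPM in DMSO, mostly from the actin gene Acta2, while Rgs5, Abcc9 and Kcnj8 had under 10 reads each. Mcam, also too low to test, went the other way, with 40 reads in baicalin and 12 in DMSO. The 5 macrophage markers reached at most 4.89 CPM in a baicalin library and 2.36 CPM in a DMSO library, and the epithelial and endothelial lists stayed under 1 CPM. The part of these shifts in the results that follow was not tested. In bulk RNA, fewer cells of a type and less RNA per cell cannot be told apart.

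Among the 10 member genes, each ligand gene with enough reads to test was higher in baicalin, and each receptor gene was lower. Of the 10 genes 7 passed the filter on low counts, namely the ligand genes Ereg, Hbegf, Nrg1 and Pdgfa and the receptor genes Egfr, Pdgfra and Pdgfrb. All 7 passed the quasi-likelihood test of edgeR, with a Benjamini-Hochberg adjusted p below 0.05 over all tested genes, the 4 ligand genes higher and the 3 receptor genes lower. The background is wide, since the same test called 67.7% of the 13728 genes tested, 33.6% higher and 34.1% lower in baicalin. The CPM values of the groups did not overlap for any of the 7, as for 70.2% of all tested genes. Ereg rose by over 2-fold, as did 5.24% of tested genes, and Egfr and Pdgfra fell by over 2-fold, as did 9.71%. Areg, Tgfa and Pdgfb had 2, 7 and 21 reads in all 6 libraries and were not tested.

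**Figure D1:**
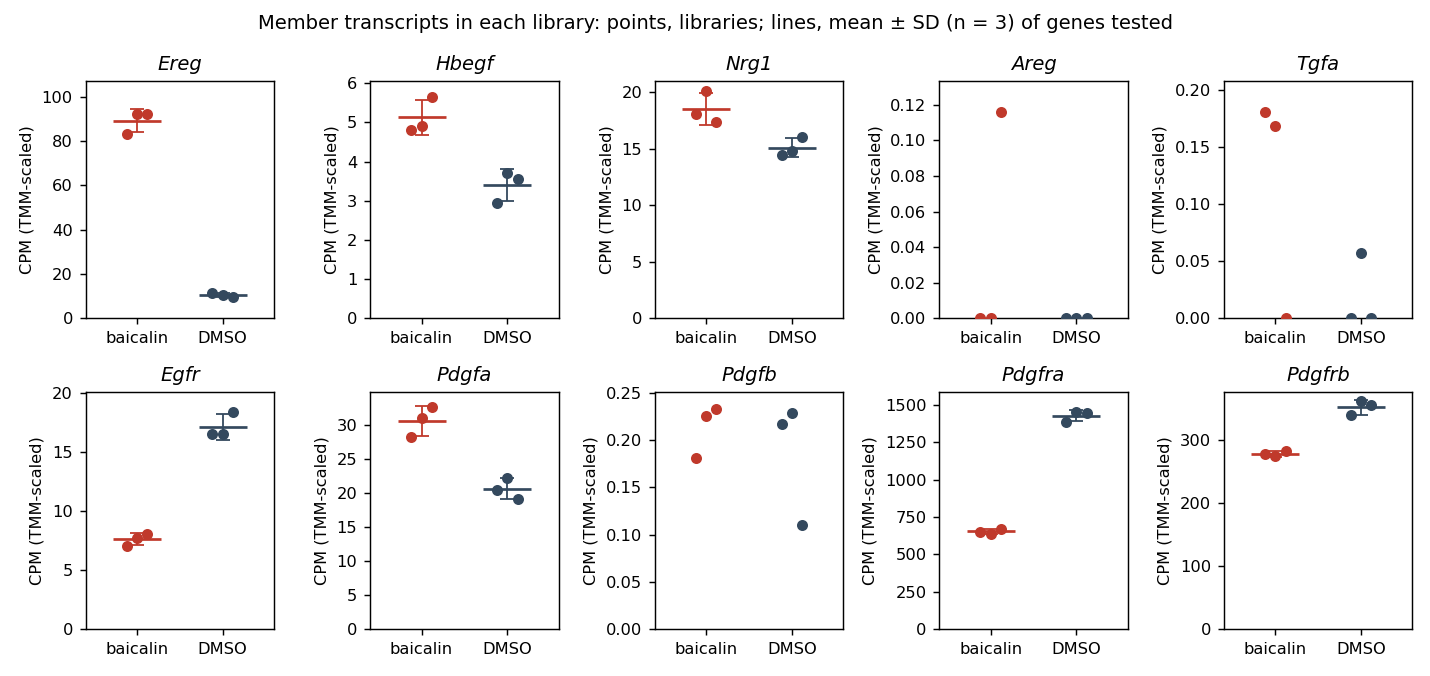
CPM (scaled by TMM factors, linear axes from 0) of the 10 member genes in each baicalin and DMSO library. Points are libraries, and lines with bars are means ± SD (n = 3) for the 7 tested genes. Ereg averaged 89.1 CPM in baicalin and 10.3 CPM in DMSO, Pdgfra 653 CPM in baicalin and 1427 CPM in DMSO.

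Ereg, which encodes epiregulin, a ligand of the EGF receptor and ErbB4, showed the widest change. It stood at 83.1, 92.3 and 92.0 CPM in the baicalin libraries and at 11.2, 10.4 and 9.43 CPM in the DMSO libraries. Each baicalin library was far above each DMSO library, and the gap was much wider than the spread within either group. The log2 fold change was 3.11 (SE 0.07, 95% interval 2.96 to 3.25, adjusted p = 1.80e-39 in edgeR), an 8.61-fold rise. Only 0.313% of the tested genes had a higher log2 fold change, which places Ereg at rank 44 of 13728. The gene lies on chromosome 5 (ENSMUSG00000029377, GRCm38, 91074622 to 91093646, plus strand). It shares 141 bp of exon with the antisense transcript Gm19610, but Gm19610 had only 10 reads in baicalin and 20 in DMSO, so that its reads amount to 0.582% of those of Ereg.

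Ereg lies in a cluster of EGF-type ligand genes, and its family neighbours there were almost silent. Epgn, the gene of epigen, lies upstream of it, with 0, 3 and 2 reads in the baicalin libraries and 2, 0 and 1 in the DMSO libraries. Areg, the gene of amphiregulin (ENSMUSG00000029378, chromosome 5, 91139599 to 91148432), starts downstream of Ereg and on the same strand. It had 0, 0 and 2 reads in the baicalin libraries and none in any DMSO library, where 3 counts over the group would correspond to 0.0578 CPM. Btc, the gene of betacellulin, had 5, 3 and 5 reads in baicalin against 3, 10 and 14 in DMSO. The ratio of its pooled reads was 0.464, with a 95% exact interval from 0.220 to 0.931 that covers counting error only, and the libraries of the groups overlapped. That ratio is scaled by total counts, without TMM factors, which would raise it and its limits. The upstream neighbour Mthfd2l, a gene of folate metabolism, had 628 reads in baicalin and 781 in DMSO and was not called (log2 fold change -0.24, adjusted p = 0.0532 in edgeR). From the chemokine gene Cxcl2, with 3, 3 and 6 reads in baicalin and none in DMSO, to Btc, 10 genes are annotated. Of these only Ereg and Mthfd2l had enough reads to test, and only Ereg was called. Btc, Mthfd2l and Cxcl2 are named after their values were seen.

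No promoter was matched for Ereg itself, so none could be searched. The promoter of Areg is shown because that gene stayed near 0 beside the strongly raised Ereg. It is the RefSeq sequence of GRCm38.p6 from 250 bases before to 50 bases after the annotated start, chr5:91139349-91139648 on the plus strand, with motif matches in capitals. Both strands of each promoter were searched for TGACTCA (AP-1), TGACGTCA (the cyclic AMP response element, CRE), TGACNNNGC (the antioxidant response element), GCGTG (the core of the xenobiotic response element) and TATAAA (the TATA box), and none of the matches found in these promoters overlapped. The CRE letters stood 61 to 54 bases before the start and the TATA letters 31 to 26 bases before it. Among the 32851 RefSeq promoters, 1.79% held the CRE letters and 13.6% the TATA letters, so such matches describe the sequence and show no use of a site.
Areg: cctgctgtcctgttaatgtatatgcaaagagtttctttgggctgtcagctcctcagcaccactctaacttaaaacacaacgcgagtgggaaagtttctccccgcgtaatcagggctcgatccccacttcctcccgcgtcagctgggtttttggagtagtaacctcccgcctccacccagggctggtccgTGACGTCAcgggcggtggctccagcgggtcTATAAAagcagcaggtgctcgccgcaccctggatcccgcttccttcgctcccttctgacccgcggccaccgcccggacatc

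The other tested EGF-type ligand genes rose less. Hbegf encodes heparin-binding EGF (ENSMUSG00000024486, chromosome 18, 36504927 to 36515805). It was at 4.81, 4.92 and 5.65 CPM in the baicalin libraries and 2.93, 3.72 and 3.56 CPM in the DMSO libraries, which rest on 80 to 97 and 54 to 65 reads a library. The groups did not overlap, with 4.81 CPM in the lowest baicalin library and 3.72 CPM in the highest DMSO library. The log2 fold change was 0.59 (SE 0.18, 95% interval 0.23 to 0.95, adjusted p = 0.00340 in edgeR), the widest interval among the tested members. Nrg1, which encodes neuregulin 1 (ENSMUSG00000062991, chromosome 8, 31814551 to 32884029), was at 18.1, 20.1 and 17.4 CPM in baicalin and 14.4, 14.8 and 16.0 CPM in DMSO. The groups did not overlap, but the lowest baicalin library was closer to the highest DMSO library than to the highest baicalin library. The log2 fold change of Nrg1 was 0.30 (SE 0.09, adjusted p = 0.00435 in edgeR), and 27.9% of tested genes had a higher one. Scaling by library size alone ended the call of Nrg1 (log2 fold change 0.17, adjusted p = 0.105), as did the log2(FPKM + 1) scale without a filter (adjusted p = 0.124).

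Tgfa, the gene of transforming growth factor alpha, had 3, 3 and 0 reads in the baicalin libraries and 0, 1 and 0 in the DMSO libraries. The ratio of baicalin to DMSO from these pooled reads was 5.79, with a 95% exact interval from 0.702 to 266 that covers counting error only, so that no difference was detectable at this depth. Of the 6 other EGF-family ligand genes Egf alone could be tested, and it is named after its value was seen. Egf encodes the founding member of the family and fell to 2.68 ± 0.26 CPM in baicalin, against 5.66 ± 0.69 CPM in DMSO (SD, n = 3 each, log2 fold change -1.07, adjusted p = 1.45e-06 in edgeR). Nrg4, also named after its values were seen, had 16 reads in baicalin and 24 in DMSO and shares 368 bp of exon with the far more abundant antisense gene Fbxo22. Nrg3 had 1 read in all and Nrg2 none.

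Per gene length, Ereg made up most of the EGF-type ligand transcripts in baicalin. The FPKM values of the 11 EGF-type ligand genes, as deposited by the authors, summed to 24.9, 27.1 and 27.3 in the baicalin libraries and to 6.04, 6.31 and 6.15 in the DMSO libraries. The sum was 4.29-fold higher in baicalin, with an exact two-sided permutation p of 0.1, the smallest that 3 against 3 libraries allow. Ereg held 83.1% ± 0.288 of the summed FPKM in baicalin and 41.0% ± 4.10 in DMSO (SD, n = 3 each). The share of Hbegf was 8.31% ± 0.564 in baicalin and 23.4% ± 2.42 in DMSO, although its own level was higher in baicalin. These shares depend on the gene lengths behind the deposited FPKM. With the 4834 bp of annotated exon, the share of Hbegf would be lower in both groups. On CPM per kilobase of annotated exon the sum of all 11 genes was 4.62-fold higher in baicalin. Nrg1 held 6.90% ± 0.556 in baicalin and 23.8% ± 1.32 in DMSO, and Egf 0.914% ± 0.0608 and 8.19% ± 0.811 in baicalin and DMSO.

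**Figure D2:**
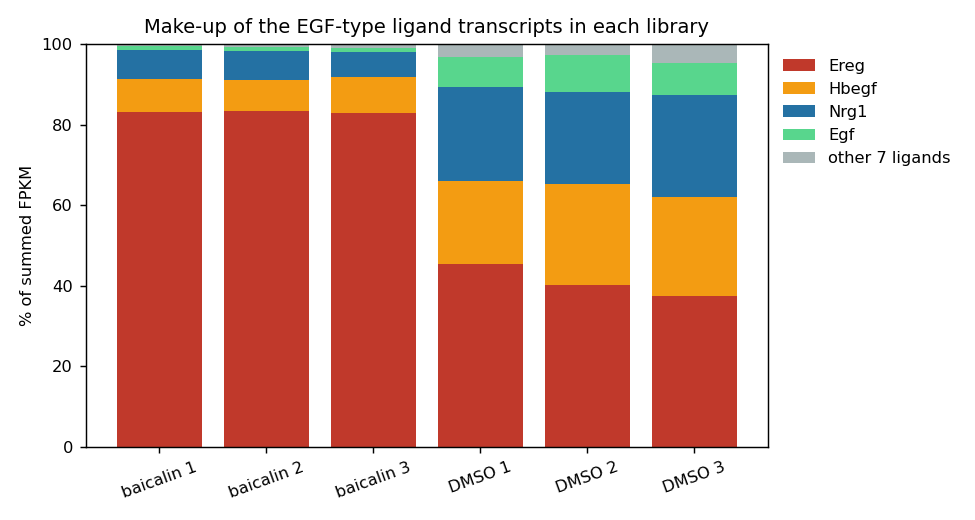
Share (%) of the summed FPKM of the 11 EGF-type ligand genes in each library, stacked by gene. Ereg takes 82.9% to 83.4% in the baicalin libraries and 37.4% to 45.5% in the DMSO libraries.

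The gene of the EGF receptor itself was lower. Egfr (ENSMUSG00000020122, chromosome 11, 16752203 to 16918158) was at 7.04, 7.68 and 8.04 CPM in the baicalin libraries and 16.5, 16.5 and 18.4 CPM in the DMSO libraries. All baicalin libraries were below all DMSO libraries, by more than the spread within the groups. The log2 fold change was -1.17 (SE 0.11, 95% interval -1.40 to -0.95, adjusted p = 1.65e-13 in edgeR), a 2.25-fold fall, and 7.52% of tested genes fell further. On the compressed log2(FPKM + 1) scale the change was -0.58. Among the other ErbB receptors, Erbb2, whose product has no known ligand and pairs with the other family members, was at 47.9 ± 3.37 CPM in baicalin and 43.5 ± 2.72 CPM in DMSO (SD, n = 3 each). It was called higher at a log2 fold change of 0.14 (adjusted p = 0.0484 in edgeR), but the call ended under 12 of 17 alternatives, among them DESeq2 (adjusted p = 0.128), library size alone (adjusted p = 0.903) and the omission of baicalin replicate 1 (adjusted p = 0.105), baicalin replicate 3 (adjusted p = 0.146) or DMSO replicate 1 (adjusted p = 0.258). Erbb3, the neuregulin receptor, and named after its values were seen, had 4, 2 and 3 reads in the baicalin libraries and 0, 0 and 1 in the DMSO libraries and did not pass the filter. The groups did not overlap, and the ratio of its pooled reads was 8.68, with a 95% exact interval from 1.2 to 380 that covers counting error only. Erbb4 had no read in any library. Per gene length, Egfr was at 0.682 ± 0.0427 FPKM in baicalin and 1.52 ± 0.0971 FPKM in DMSO, below Erbb2 in every library.

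Of the PDGF ligand genes, Pdgfa rose and Pdgfb was barely present. Pdgfa, which encodes the A chain (ENSMUSG00000025856, chromosome 5, 138976014 to 138997370, minus strand), was at 28.2, 31.0 and 32.5 CPM in the baicalin libraries and 20.4, 22.2 and 19.1 CPM in the DMSO libraries. The groups were separate, and the log2 fold change was 0.57 (SE 0.08, 95% interval 0.41 to 0.73, adjusted p = 1.08e-08 in edgeR). Pdgfa is uncertain, however. It shares 813 bp of exon with the antisense transcript 6330403L08Rik, which had 83.9% as many reads and was also higher in baicalin (log2 fold change 0.65, adjusted p = 3.20e-09), and without knowledge of the strand setting the reads of the overlap cannot be assigned. With trends on gene length and GC content removed, the value of Pdgfa was 0.33 and remained called (adjusted p = 1.87e-04). Pdgfb, which encodes the B chain, had 3, 4 and 4 reads in baicalin and 4, 4 and 2 in DMSO, a ratio of 1.06 with a 95% exact interval from 0.409 to 2.79. The ratio of Pdgfa to Pdgfb FPKM was 208, 183 and 186 in the baicalin libraries and 125, 129 and 233 in the DMSO libraries, so that the groups overlapped (log2 difference 0.30, exact two-sided permutation p = 0.400), and it rests on the few reads of Pdgfb. Without DMSO replicate 3 the log2 difference was 0.59. Pdgfc, which encodes a chain activated by protease cleavage, was at 37.0 ± 1.16 CPM in baicalin and 32.9 ± 0.81 CPM in DMSO (SD, n = 3 each). It was called higher at 0.17 (adjusted p = 0.0250 in edgeR), a call lost with library size alone (log2 fold change 0.04, adjusted p = 0.616), with DESeq2 (adjusted p = 0.0690) and without baicalin replicate 2 (adjusted p = 0.0672) or DMSO replicate 2 (adjusted p = 0.0686). Pdgfd had 1 read in all.

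Both PDGF receptor genes fell, by unequal amounts. Pdgfra, the gene of the alpha receptor (ENSMUSG00000029231, chromosome 5, 75152292 to 75198215), was at 651, 637 and 671 CPM in the baicalin libraries and 1384, 1451 and 1445 CPM in the DMSO libraries. Its log2 fold change was -1.13 (SE 0.04, 95% interval -1.20 to -1.05, adjusted p = 4.04e-32 in edgeR), a 2.18-fold fall. Pdgfrb, the gene of the beta receptor (ENSMUSG00000024620, chromosome 18, 61045150 to 61085061), was at 277, 274 and 283 CPM in baicalin and 339, 361 and 355 CPM in DMSO. The groups did not overlap here either, and the log2 fold change was -0.34 (SE 0.04, 95% interval -0.41 to -0.26, adjusted p = 4.76e-11 in edgeR), a fall shared or exceeded by many genes, since 28.9% of tested genes had a lower value. Pdgfrl, which encodes a secreted protein resembling the extracellular part of the receptors, fell 2.82-fold to 97.7 ± 4.65 CPM in baicalin, against 276 ± 5.69 CPM in DMSO (SD, n = 3 each, log2 fold change -1.50, adjusted p = 3.47e-35 in edgeR).

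Per gene length, the alpha receptor stayed the most abundant of the members, with 66.3 ± 1.88 FPKM in baicalin and 143 ± 3.45 FPKM in DMSO (SD, n = 3 each). The beta receptor was at 51.7 ± 0.941 FPKM in baicalin and 64.7 ± 1.96 FPKM in DMSO. The ratio of Pdgfra to Pdgfrb FPKM was 1.28, 1.27 and 1.29 in the baicalin libraries and 2.23, 2.20 and 2.23 in the DMSO libraries. It was 1.73-fold lower in baicalin, with an exact two-sided permutation p of 0.1, again the smallest possible. In baicalin the order of the tested member levels was Pdgfra, Pdgfrb, Ereg, Pdgfa, Hbegf, Nrg1 and Egfr, and in DMSO it was Pdgfra, Pdgfrb, Pdgfa, Ereg, Egfr, Nrg1 and Hbegf. In DMSO, the ranges over libraries of Egfr, Nrg1 and Hbegf overlapped, at 1.52 ± 0.0971, 1.47 ± 0.0797 and 1.44 ± 0.176 FPKM, so these neighbours did not differ beyond their spread. In baicalin no such overlap was left between neighbours, with Hbegf at 2.20 ± 0.192 FPKM and Nrg1 at 1.82 ± 0.132 FPKM. The place of Hbegf in both orders, and its overlap in DMSO, hold only for the gene lengths behind the deposited FPKM. The annotated exons measure 4834 bp for Hbegf and 10351 bp for Nrg1. With mean CPM of 5.13 and 18.5 in baicalin and 3.40 and 15.1 in DMSO, Hbegf was below Nrg1 per annotated kilobase in both groups.

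**Figure D3:**
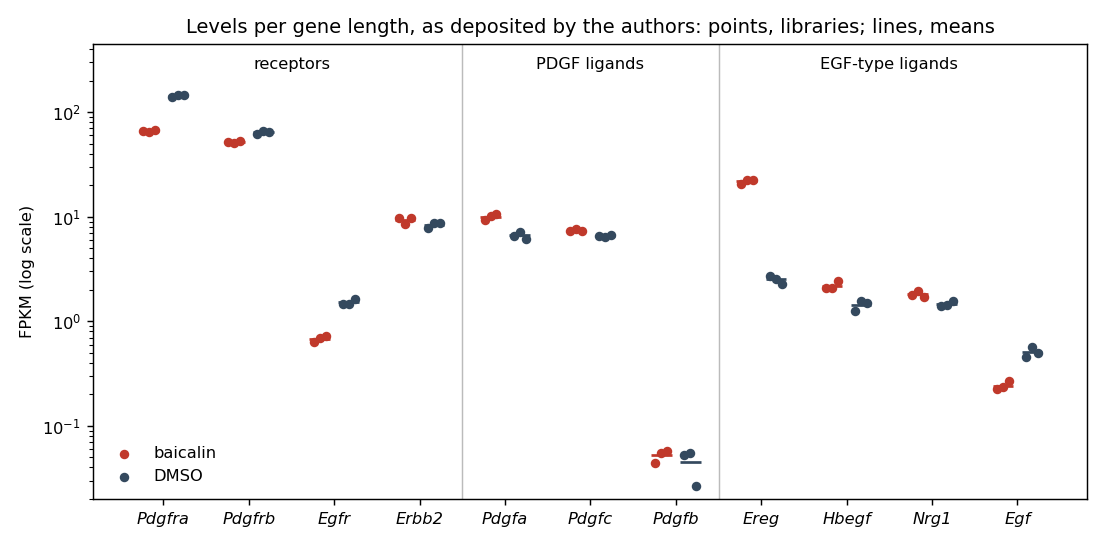
FPKM (log axis) of receptor, PDGF ligand and EGF-type ligand genes in each baicalin and DMSO library, with group means as lines. Pdgfra and Pdgfrb stand highest in both groups, and Ereg averaged 22.0 FPKM in baicalin and 2.53 FPKM in DMSO.

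The promoters of Egfr, Pdgfra and Pdgfa are shown because the first pair fell together while the ligand gene rose. They are RefSeq sequences of GRCm38.p6 over the same window, at chr11:16751953-16752252 on the plus strand for Egfr, at chr5:75152001-75152300 on the plus strand for Pdgfra, and at chr5:138994232-138994531 (start 1) and chr5:138994895-138995194 (start 2) on the minus strand for the alternative starts of Pdgfa. Capitals mark motif matches. None of the motifs named above was matched in the Egfr and Pdgfra windows. The gene start given above for Pdgfra, 75152292, lies near the end of its window, so the RefSeq start used here differs from it. Both Pdgfa windows lie inside the gene as positioned above, which begins at 138997370 on the minus strand. The sequence before that outermost start was not searched. At start 1 of Pdgfa the antioxidant response element letters stood 84 to 76 bases before the start, as somewhere in 12.4% of all promoters, and at start 2 the xenobiotic response element core stood 231 to 227 bases before it on the opposite strand, as in 32.4% of all promoters.
Egfr: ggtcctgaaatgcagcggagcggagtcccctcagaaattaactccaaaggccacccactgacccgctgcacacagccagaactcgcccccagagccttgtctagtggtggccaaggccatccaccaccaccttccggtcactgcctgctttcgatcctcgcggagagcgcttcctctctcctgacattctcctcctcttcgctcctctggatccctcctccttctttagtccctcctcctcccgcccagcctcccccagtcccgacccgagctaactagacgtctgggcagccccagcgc
Pdgfra: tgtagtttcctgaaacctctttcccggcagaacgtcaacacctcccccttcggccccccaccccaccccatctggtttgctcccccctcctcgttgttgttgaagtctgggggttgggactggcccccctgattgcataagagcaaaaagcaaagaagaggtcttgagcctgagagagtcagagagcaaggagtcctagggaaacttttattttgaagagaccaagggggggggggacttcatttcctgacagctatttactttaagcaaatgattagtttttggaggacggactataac
Pdgfa start 1: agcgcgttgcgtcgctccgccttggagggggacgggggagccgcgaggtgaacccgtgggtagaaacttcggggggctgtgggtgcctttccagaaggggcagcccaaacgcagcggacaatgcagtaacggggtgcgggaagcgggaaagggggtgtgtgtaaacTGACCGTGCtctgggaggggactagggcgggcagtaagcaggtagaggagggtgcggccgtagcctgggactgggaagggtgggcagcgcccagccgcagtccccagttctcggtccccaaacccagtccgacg
Pdgfa start 2: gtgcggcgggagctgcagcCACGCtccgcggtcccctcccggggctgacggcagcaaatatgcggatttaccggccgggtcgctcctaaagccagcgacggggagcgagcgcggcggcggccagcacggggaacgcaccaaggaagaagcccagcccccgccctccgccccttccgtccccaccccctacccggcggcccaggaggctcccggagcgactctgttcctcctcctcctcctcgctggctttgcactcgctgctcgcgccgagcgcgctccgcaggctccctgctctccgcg

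**Figure D4:**
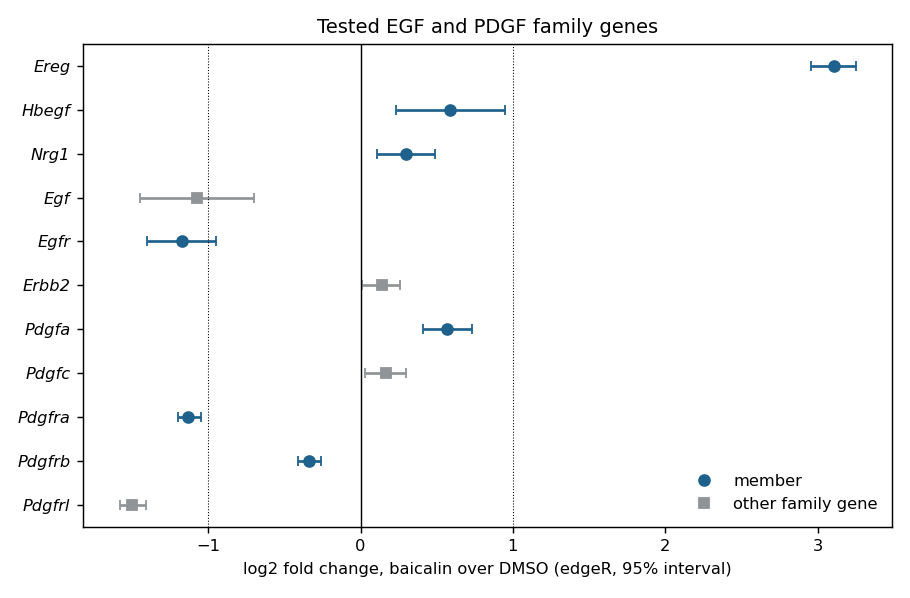
Log2 fold changes of baicalin over DMSO with 95% intervals from edgeR for the 7 tested members and 4 other tested genes of the families. Dotted lines mark 2-fold. Ereg stands at 3.11, the other tested member ligand genes between 0.30 and 0.59, and the receptor genes Pdgfrb, Pdgfra and Egfr at -0.34, -1.13 and -1.17.

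Of 15 genes that release and process the ligands 12 were tested, with 5 higher, 4 lower and 3 not called. That is near the shares over all tested genes, of which 33.6% were called higher and 34.1% lower, and the median log2 fold change was 0.05, against 0.00 over all tested genes. The counts of the lists that follow are to be read against the same shares. All lists were chosen with earlier results of these data known, so their counts are descriptive and no independent evidence. The disintegrin metalloproteases Adam15 (234 ± 6.68 CPM in baicalin and 179 ± 2.23 CPM in DMSO) and Adam9 (369 ± 0.32 CPM in baicalin and 296 ± 5.13 CPM in DMSO) rose modestly (SD, n = 3 each). Adam17, the main sheddase of EGF receptor ligands and named after its value was seen, rose by a log2 fold change of 0.36 (adjusted p = 1.25e-10 in edgeR), and it shares 311 bp of exon with Iah1 on the other strand. Adam12 fell to 7.98 ± 0.14 CPM in baicalin, against 26.9 ± 2.20 CPM in DMSO, and Plat, the gene of the tissue plasminogen activator that activates PDGF-C, fell to 95.2 ± 6.98 CPM in baicalin, against 148 ± 2.64 CPM in DMSO (SD, n = 3 each). With library size alone, 3 of these genes were called higher and 6 lower. Timp3, Pcsk5 and Pcsk6 had 7, 1 and 4 reads and were not tested.

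Genes of surface partners that hold or present HB-EGF and PDGF were mostly higher. Of 8 genes 7 were tested, with 5 higher and 2 lower and a median log2 fold change of 1.06. The heparan sulphate proteoglycan genes Gpc1, which encodes glypican 1, and Sdc4, which encodes syndecan 4, showed the widest changes. Gpc1 was at 356 ± 21.1 CPM in baicalin and 58.1 ± 1.46 CPM in DMSO (log2 fold change 2.61, adjusted p = 2.54e-44 in edgeR). Sdc4 was at 587 ± 13.0 CPM in baicalin and 134 ± 7.64 CPM in DMSO (2.13, adjusted p = 1.66e-42). Cd9, a tetraspanin that associates with membrane-bound HB-EGF, was at 309 ± 5.89 CPM in baicalin and 148 ± 4.46 CPM in DMSO, and Cd44, the hyaluronan receptor, at 130 ± 4.86 CPM in baicalin and 61.3 ± 1.70 CPM in DMSO (SD, n = 3 each). Cspg4, a proteoglycan that binds PDGF-A, and named after its values were seen, had 7 reads in baicalin and 25 in DMSO and did not pass the filter. The ratio was 0.270, with a 95% exact interval from 0.0986 to 0.642 that covers counting error only, and the libraries of the groups overlapped.

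Of 12 tested adaptor and proximal signalling genes 3 were higher, 8 lower and 1 not called, with a median log2 fold change of -0.24. The count of falls was 5 with length and GC trends removed. Gab1, a docking protein of the EGF receptor, fell to 23.4 ± 1.39 CPM in baicalin, against 44.7 ± 1.42 CPM in DMSO, whereas the adaptor gene Grb2 rose to 78.5 ± 2.56 CPM in baicalin, against 62.4 ± 3.08 CPM in DMSO (SD, n = 3 each). Sos1, the gene of an exchange factor for RAS, had a log2 fold change of -0.42, which became 0.03 with the trends removed (adjusted p = 0.653), and the call of Nck1 (-0.47) was lost there too (adjusted p = 0.0691).

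Of 16 genes that restrain receptors or direct their traffic 13 were tested, with 3 higher, 6 lower and 4 not called and a median of -0.06. With the trends removed the split was 5 higher and 3 lower, so the direction of this list depends on that correction. Lrig1, which encodes a membrane protein that promotes the breakdown of ErbB receptors, rose to 428 ± 14.0 CPM in baicalin, against 221 ± 2.24 CPM in DMSO (log2 fold change 0.95, adjusted p = 2.46e-28 in edgeR). The related gene Lrig3 fell to 43.3 ± 1.45 CPM in baicalin, against 65.8 ± 1.43 CPM in DMSO. The phosphatase gene Ptpn1 rose to 82.2 ± 3.85 CPM in baicalin, against 52.2 ± 2.11 CPM in DMSO, and the endocytic adaptor gene Eps15 fell to 76.2 ± 4.16 CPM in baicalin, against 119 ± 5.27 CPM in DMSO (SD, n = 3 each). Errfi1, which encodes a feedback inhibitor of the EGF receptor and is named after its value was seen, fell by 0.54 on the log2 scale (adjusted p = 4.42e-06 in edgeR). Hgs, with 4 reads in all, is no measure of its transcript, because 2 annotated genes of that name overlap over 2897 bp.

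Of 15 genes that respond to growth factor signalling all were tested, with 10 higher, 1 lower and 4 not called, and a median log2 fold change of 0.93. Fosl1, a subunit of the AP-1 transcription factor, was at 211 ± 0.63 CPM in baicalin and 27.8 ± 1.75 CPM in DMSO (log2 fold change 2.92, adjusted p = 8.32e-45 in edgeR). Its exons overlap those of Ccdc85b on the opposite strand over 1163 bp, and Ccdc85b had 65.8% as many reads and was also higher, so the size of the rise is uncertain. Phlda1 was at 26.2 ± 3.17 CPM in baicalin and 4.85 ± 0.71 CPM in DMSO, Dusp4, the gene of a phosphatase of ERK kinases, at 29.5 ± 2.39 CPM in baicalin and 9.51 ± 1.12 CPM in DMSO, and the transcription factor gene Myc at 77.3 ± 1.81 CPM in baicalin and 31.0 ± 3.80 CPM in DMSO (SD, n = 3 each). The immediate early genes Fos (6.11 ± 0.62 CPM in baicalin and 4.92 ± 0.58 CPM in DMSO) and Egr1 (47.7 ± 4.30 CPM in baicalin and 46.6 ± 1.96 CPM in DMSO), named after their values were seen, were not called (adjusted p = 0.0768 and adjusted p = 0.678 in edgeR). The only fall was that of Spry4, named after its value was seen (log2 fold change -0.17, adjusted p = 0.0482 in edgeR), and that call was lost with DESeq2 (adjusted p = 0.221) and without baicalin replicate 1 (adjusted p = 0.136), baicalin replicate 2 (adjusted p = 0.208), DMSO replicate 1 (adjusted p = 0.207) or DMSO replicate 2 (adjusted p = 0.0931).

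**Figure D5:**
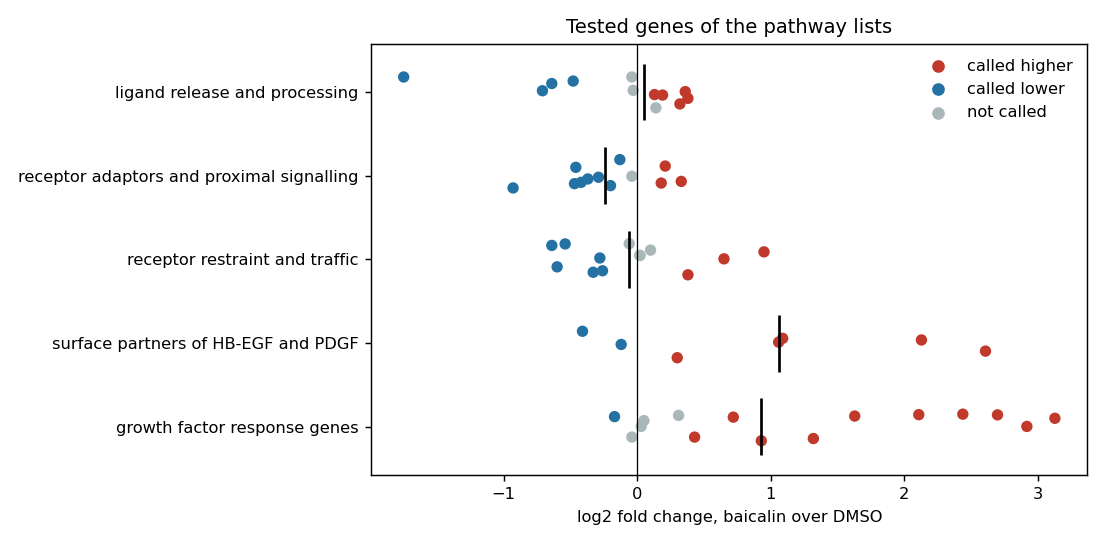
Log2 fold changes of baicalin over DMSO for the tested genes of 5 lists around the receptors. Each point is a gene, red where called higher, blue where called lower and grey where not called, and black lines are list medians, which run from -0.24 for adaptors to 1.06 for surface partners.

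By the smallest root mean square difference of centred log2 CPM over the 6 libraries, the genes whose profile was nearest to that of Ereg were Fosl1 (difference 0.102), the acute-phase gene Saa3 (0.114) and Fxyd5 (0.115), with log2 fold changes of 2.92, 3.20 and 3.03. Those nearest to Egfr were Ccdc85a (0.045), the kinesin gene Kif13b (0.052) and Fzd5 (0.053), a Wnt receptor gene, with log2 fold changes of -1.27, -1.09 and -1.18. With 2 groups of 3 libraries this likeness mostly measures a similar size of change.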

How the data were processed

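Poly-A RNA from 6 samples was made into NEBNext Ultra libraries, per the labels' protocols. The deposited table holds read counts per gene, made by the authors with featureCounts (1.5.0-p3 in the series design text) on build mm10, per the submitters' processing notes. It also holds FPKM values that the authors computed from counts and gene lengths, per the series design text. Aligner, annotation and strand setting were not given in the sources used here. Positions come from GENCODE M21 (GRCm38, the assembly of mm10), which holds 54495 of the 54532 gene identifiers, and promoters from RefSeq (GRCm38.p6), where 5 of the 10 members were matched. These were Areg, Egfr, Pdgfa, Pdgfra and Tgfa, of which Tgfa is not shown.

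Treatment was the only term of robust quasi-likelihood fits to the counts in edgeR 4.0.16 under R 4.3.3, after filterByExpr and TMM scaling. All values called come from an adjusted p under 0.05 over 13728 genes. SE is the log2 fold change divided by the square root of F. The ratio of pooled reads has a Clopper-Pearson interval. It is scaled by total counts, without TMM factors, which were 0.945 to 0.967 in baicalin and 1.04 to 1.05 in DMSO libraries. Medians and counts describe gene lists, and no list was tested. Members and lists were chosen with earlier results of these data known. Named are the members, up to 4 called genes of a list with the smallest p and a mean of at least 5 CPM, and genes with under 10 reads; the text names fewer. Within-group pairs of libraries differed by more than sampling noise (chi-square per degree of freedom 2.83 to 4.35), so none was counted as 1 sample.

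On simulated counts for 13502 genes with this design edgeR called 39.7% of genes changed 1.2-fold, 80.9% at 1.5-fold, 88.4% at 2-fold and 100% at 4-fold, and 8 of 13305 unchanged genes were called falsely. Only 58, 47, 43 and 49 genes were changed at these folds. In the data 67.7% of tested genes were called, so these rates need not hold there. Alternatives were RLE factors, library size alone, DESeq2 1.42.0, limma-voom (limma 3.58.1), no filter on counts, a filter of 1 CPM in every library of either group, a replicate block, limma-trend on FPKM with pseudocounts of 1 and 0.1 (log2 scale, FPKM 1 or more in 3 libraries), the pseudocount of 1 also unfiltered, each library left out, and, chosen after seeing the data, lowess trends (span 0.3) on exon length and GC removed.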

Additional observations from a re-analysis of the deposited data

How the results depend on the processing

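Ereg, Hbegf, Pdgfa, Egfr, Pdgfra and Pdgfrb kept their direction and their call under all 17 alternatives. Their log2 fold changes ranged from 2.70 to 3.52, 0.39 to 0.66, 0.33 to 0.64, -1.30 to -0.58, -1.25 to -0.94 and -0.46 to -0.30 in that order, and adjusted p reached 0.0286 for Hbegf. The call of Nrg1 was lost with library size alone (0.17) and on log2(FPKM + 1) without a filter (0.19). With library size alone the median over all genes was -0.13 on the log2 scale (-0.14 with DESeq2, -0.12 without a filter on counts, 0.00 with TMM) and the calls numbered 3472 higher and 5811 lower (37.4% higher, against 49.7% with TMM), Socs5 turned to -0.11 and Usp8 to -0.11. With the length and GC trends removed Adam10 turned to 0.10, Sos1 to 0.03, Lrig2 to 0.09, Cbl to 0.02, Cblb to 0.16 and Socs4 to 0.25, and falls among adaptors numbered 5 instead of 8, while restraint genes had 5 rises and 3 falls instead of 3 and 6. The causes were not tested. List counts of 1 or 2 (Erbb2, Pdgfc, Spry4, Cd81 and Egf) moved to between 0 and 2 under several alternatives, Egf because its FPKM was under the filter. Falls among surface partners numbered 1 instead of 2 without baicalin replicate 3, and other EGF-family ligands 2 instead of 1 without DMSO replicate 1.

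Without DMSO replicate 3 the Pdgfa to Pdgfb ratio differed by 0.59 on the log2 scale, against 0.30 with all libraries and 0.15 at the lowest, without DMSO replicate 1. Labels give both groups the numbers 1 to 3, but deviations of same-numbered libraries correlated at only 0.03, 0.04 and 0. Baicalin replicate 3 correlated better with DMSO replicate 2 (0.03). The numbers were therefore not taken as a pairing, which correlations this small among so few libraries cannot exclude. A fit with the replicate block called 4660 genes higher and 4731 lower and the same members in the same directions. Depth limits Areg, Tgfa, Pdgfb, Epgn and Nrg4, for which no change was detectable. The counting interval of Erbb3 excludes equal levels but rests on 10 reads. That of Btc rests on 40 reads, and its upper limit of 0.931 holds for scaling by total counts. TMM factors would raise that limit, so equal levels of Btc cannot be called excluded.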
